A study of Mus musculus with 2 samples.

Results

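*Mycn*, *Ddx1*, *Fam49a* and *Nbas* are 4 of the 27998 genes listed for both tumors, and they were chosen because their UMI counts were already known to be far higher in tumor TKO2 than in tumor TKO1. They lie side by side on mouse chromosome 12. Their UMIs were taken from both count tables, and the main comparisons used only barcodes retained for their number of detected genes. Differences between the tumors are therefore given as descriptions, with no test. Both tumors were small cell lung cancers (SCLC) of mice whose genotype is labelled Rb-/-, Trp53-/- and Rbl2-/-. The mice carried a Rosa26 membrane-Tomato/membrane-GFP reporter allele, on a mixed background of 129/SvOla, 129/SVJ and C57BL/6. In the paper these genes are floxed and deleted conditionally in lung cells by Cre. The mice were 8 to 9 months old, and tumors had been induced 7 months before harvest with an adenovirus that expresses Cre from the CMV promoter, which is not restricted to a cell type. A single tumor was taken from each mouse, sorted by FACS for live cells that excluded DAPI, with no marker of cell type named for the sort, and made into 1 10x Chromium library, so each tumor is 1 library from 1 animal and no comparison has a p-value.

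*Mycn* encodes a MYC-family transcription factor that pairs with Max and binds E-box sequences, and its amplification is known from neuroblastoma and from a portion of human SCLC. *Ddx1* encodes a DEAD-box RNA helicase that works with the tRNA ligase complex, and the human gene is often amplified together with MYCN. *Nbas*, named for neuroblastoma amplified sequence, encodes a subunit of the NRZ complex, which tethers vesicles returning from the Golgi to the endoplasmic reticulum. *Fam49a*, now also called *Cyria*, belongs to a small family of proteins that bind Rac1 and restrain the actin-regulating WAVE complex.

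On GRCm38, by the identifiers of the files matched to GENCODE M21, the order along chromosome 12 is *Fam49a* (ENSMUSG00000020589, plus strand, 12262139 to 12380965), *Mycn* (ENSMUSG00000037169, minus strand, 12936093 to 12941914), *Ddx1* (ENSMUSG00000037149, minus strand, 13216973 to 13249213) and *Nbas* (ENSMUSG00000020576, plus strand, 13269133 to 13583811). All 4 are protein-coding, and from the first base of *Fam49a* to the last base of *Nbas* the stretch covers 1322 kb. *Ddx1* and *Nbas* point away from each other with 19.9 kb between them, while 555 kb separate *Fam49a* from *Mycn* and 275 kb separate *Mycn* from *Ddx1*. The annotation places genes on the opposite strand inside *Fam49a* and inside *Nbas*, none of which is listed in the files, and whether counting used the strand is not given in the sources used here.

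Because the 4 genes were high together, the bases just before their transcription starts are shown, from RefSeq on GRCm38.p6, where all 4 members matched an entry (*Fam49a* as *Cyria*). Each is printed 5′ to 3′ on its own strand and stops before the first annotated transcribed base, and capitals mark GGGCGG, the GC box, on either strand.

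Fam49a (chr12:12261927-12262138, plus strand): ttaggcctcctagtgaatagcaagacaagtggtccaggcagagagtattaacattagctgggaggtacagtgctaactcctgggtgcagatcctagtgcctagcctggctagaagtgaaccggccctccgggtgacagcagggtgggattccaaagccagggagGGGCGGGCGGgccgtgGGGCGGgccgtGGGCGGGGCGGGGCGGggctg

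Mycn (chr12:12941915-12942086, minus strand): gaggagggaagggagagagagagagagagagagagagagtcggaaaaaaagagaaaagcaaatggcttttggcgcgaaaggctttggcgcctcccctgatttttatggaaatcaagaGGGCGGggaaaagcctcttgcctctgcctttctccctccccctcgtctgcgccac

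Ddx1 (chr12:13249214-13249424, minus strand): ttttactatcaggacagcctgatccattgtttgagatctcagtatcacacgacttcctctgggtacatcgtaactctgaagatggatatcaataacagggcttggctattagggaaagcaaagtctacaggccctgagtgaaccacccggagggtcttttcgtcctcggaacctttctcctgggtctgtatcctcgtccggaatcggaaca

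Nbas (chr12:13268877-13269126, plus strand): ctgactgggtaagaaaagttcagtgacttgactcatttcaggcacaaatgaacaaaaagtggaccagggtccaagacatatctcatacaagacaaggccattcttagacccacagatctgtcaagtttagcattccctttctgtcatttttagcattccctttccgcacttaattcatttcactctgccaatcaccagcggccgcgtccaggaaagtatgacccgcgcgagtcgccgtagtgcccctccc

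The 4 stretches had little in common in these letters. GGGCGG was found 6 times before *Fam49a*, counting overlapping matches, once before *Mycn*, and not before *Ddx1* or *Nbas*, where 35.9% of 27025 RefSeq promoters of 300 bases held it on either strand. CACGTG, the E-box that MYC proteins prefer, was not found in the 300-base window of any of the 4, where 7.24% of promoters held it. A match or its absence describes these letters in this window and nothing about binding.

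Of 4514 barcodes of TKO1, 3193 had more than 500 detected genes and were retained, with a median of 1223 UMIs, and of 3816 barcodes of TKO2, 3568 were retained, with a median of 1960 UMIs. In each tumor most cells were neuroendocrine-like by marker genes (2990 in TKO1 and 3381 in TKO2), with 98 and 121 macrophage-like cells, 105 club-like cells in TKO1, and 66 cells in an unnamed TKO2 cluster that held club and neuroendocrine markers together. The 16 neuroendocrine markers summed to 24218 CPM, or UMIs per 1000000 UMIs, in the neuroendocrine-like cells of TKO1, with 16944 CPM from *Calca*. They summed to 2197 CPM in those of TKO2, where *Calca* had 17.5 CPM and *Resp18* 6.70 CPM. The macrophage-like cells had 4748 CPM in TKO1 and 835 CPM in TKO2, the club-like cells 6935 CPM and the unnamed cluster 8566 CPM. The name neuroendocrine-like thus means only above the macrophage-like cells of the same tumor. *Calca* encodes calcitonin and CGRP, neuropeptides of pulmonary neuroendocrine cells. 1 TKO1 cluster of 370 cells had 3 ciliated-cell markers and no neuroendocrine marker among its 10 leading genes, although 13 of 16 neuroendocrine markers were above their macrophage level in it, and ratios are also given without it. The deleted genes had 77.1 and 15.2 CPM for *Rb1*, 49.0 and 63.0 CPM for *Trp53* and 9.46 and 1.80 CPM for *Rbl2* in TKO1 and TKO2, counts that do not show which exons were present. The libraries shared 22 barcodes, of which 12 and 21 were retained.

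All 4 genes were far higher in TKO2, by 17.7-fold for *Nbas* to 230-fold for *Mycn*. For each tumor, the UMIs of a gene in all neuroendocrine-like cells were divided by their total, 4226973 UMIs in TKO1 and 7760480 in TKO2, and all intervals are exact 95% intervals that cover counting error only. *Mycn* had 53 UMIs in TKO1, or 12.5 CPM (9.39 to 16.4), and 22346 UMIs in TKO2, or 2879 CPM (2842 to 2917). The log2 ratio of TKO2 over TKO1 was 7.84 (7.46 to 8.26), the third largest of the 12927 genes with at least 10 UMIs over both tumors. *Ddx1* was already well expressed in TKO1, with 568 UMIs at 134 CPM (124 to 146), against 68279 UMIs at 8798 CPM (8732 to 8865) in TKO2. Its log2 ratio was 6.03 (5.91 to 6.15), a 65.5-fold difference and the 33rd largest. *Fam49a* had 27 UMIs in TKO1, or 6.39 CPM (4.21 to 9.29), and 4654 UMIs in TKO2, or 600 CPM (583 to 617). At a log2 ratio of 6.55 (6.01 to 7.16) it was 93.9-fold higher and ranked 18th. *Nbas* differed least, from 44 UMIs at 10.4 CPM (7.56 to 13.97) to 1433 UMIs at 185 CPM (175 to 194), with a log2 ratio of 4.15 (3.72 to 4.62) and rank 130.

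At least 4-fold higher in TKO2 were 4 of 4 members and 4.83% of all 12927 genes, and since the members were chosen on this contrast nothing is read from that count. The median log2 ratio of all genes was -0.37, so the members stood 4.52 to 8.21 above it. Ribosomal protein and mitochondria-encoded genes took 24.1% of the UMIs of TKO2 and 11.3% of those of TKO1. With TMM factors the median moved to 0.01 and the log2 ratios of the members became 8.22 for *Mycn*, 6.41 for *Ddx1*, 6.93 for *Fam49a* and 4.53 for *Nbas*. Without the TKO1 cluster that held ciliated markers they were 7.76, 5.99, 6.44 and 4.05. Together the 4 genes took 1.25% of all UMIs of the neuroendocrine-like cells of TKO2 and 0.0164% of those of TKO1. In single TKO2 cells their share had a median of 0.862%, with 0.244% at the 10th percentile and 2.30% at the 90th, and in 49 of 3381 cells it was at least 5%, up to 12.6%. No TKO1 cell passed 0.476%.

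The difference was not seen in the nearest measured gene on either side of the 4 genes. The nearest genes with at least 10 UMIs outside them were *Smc6*, a subunit of the SMC5/6 chromosome maintenance complex, which ends 942 kb before *Fam49a*, and *Fam84a*, which starts 563 kb after *Nbas*. *Smc6* had 329 CPM in TKO1 and 292 CPM in TKO2, a log2 ratio of -0.17 (-0.27 to -0.07). *Fam84a* had 10.2 and 7.99 CPM, a log2 ratio of -0.35 (-0.93 to 0.25). Both lay near the median of all genes, and 2827 kb separate them. No gene in the gaps of 942 kb and 563 kb had at least 10 UMIs, so the edges of the higher levels were not resolved. Within 2 Mb of the start of *Mycn*, 9 genes had at least 10 UMIs, and none but the members was at least 4-fold higher. Of the other 5, *Gen1*, a Holliday junction resolvase next to *Smc6*, had 8 and 25 UMIs and a log2 ratio of 0.77 (-0.43 to 2.13). The noncoding 4930519A11Rik, which lies between *Fam49a* and *Mycn*, had 0 UMIs in TKO1 and 10 in TKO2. With TKO1 set to a floor of 3 UMIs its log2 ratio was 0.86, and its counting interval began at 0.29. The pseudogene *Rpl36-ps3*, also between *Fam49a* and *Mycn*, had 7 and 3 UMIs and a log2 ratio of -2.10 (-4.68 to 0.03), an interval wholly below those of the 4 members. With so few UMIs, 4930519A11Rik could not be placed beside the members.

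Within 10 Mb on either side, 61 genes had at least 10 UMIs, of which 6 were at least 4-fold higher and 5 at least 4-fold lower in TKO2. The 6 include the 4 members, which were chosen on this contrast. Of the 57 genes other than the members, 2 were higher and 5 lower, beside 4.83% and 14.5% of all genes. The other higher genes were *Ntsr2* and the noncoding Gm26520. *Ntsr2*, a neurotensin receptor 3.72 Mb after *Mycn*, had 11 and 183 UMIs and a log2 ratio of 3.18 (2.31 to 4.21). Gm26520, 9.59 Mb before *Mycn*, had 0 and 23 UMIs. With TKO1 set to 3 UMIs its log2 ratio was 2.06, and its counting interval began at 1.65, below the 4-fold line. The lower ones, named after their values were seen, were *Fkbp1b*, *Rpl36-ps3*, *Lpin1*, *Pqlc3* and *Kcnf1*. The 57 genes other than the members had a median log2 ratio of -0.15, against -0.37 over all genes.

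**Figure D1:**
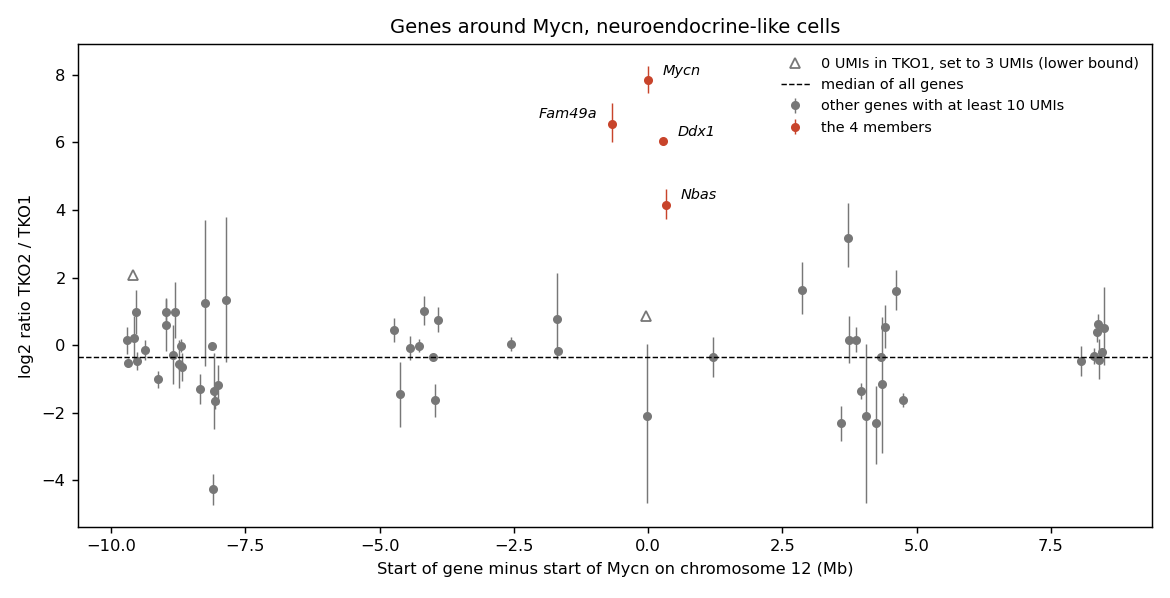
Log2 ratio of TKO2 over TKO1 in neuroendocrine-like cells (y axis) against the start of each gene relative to that of *Mycn* on chromosome 12 in Mb (x axis), for the 61 genes with at least 10 UMIs, with 95% intervals for counting error. The 4 members (red) lie between 4.15 and 7.84, while *Smc6* at -0.17 and *Fam84a* at -0.35 on either side lie near the dashed median of all genes at -0.37.

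At a fixed depth *Mycn* and *Ddx1* were found in most neuroendocrine-like cells of TKO2, and *Fam49a* and *Nbas* in a minority. To compare cells at 1 depth, each cell was thinned to 1000 UMIs, which left 2150 neuroendocrine-like cells of TKO1 and 3020 of TKO2 and dropped 840 and 361 shallower ones. A *Mycn* UMI was found in 77.5% of TKO2 cells (76.0 to 79.0) and in 1.44% of TKO1 cells (0.982 to 2.04), and before thinning in 86.5% and 1.64%. *Ddx1* was found in 89.5% (88.4 to 90.6) and 10.4% (9.11 to 11.7), and in 92.3% and 15.6% before thinning. In the macrophage-like cells of TKO2 the thinned shares were 22.3% for *Mycn*, 29.5% for *Ddx1*, 13.4% for *Fam49a* and 1.79% for *Nbas*, at median depths of 1639 UMIs there and 1983 in the neuroendocrine-like cells before thinning, below those of the neuroendocrine-like cells for each gene. *Fam49a* was found in 27.7% (26.1 to 29.3) against 0.512% (0.256 to 0.914), and in 39.9% and 0.803% before thinning. *Nbas* was found in 12.2% (11.01 to 13.4) against 0.884% (0.533 to 1.38), and in 22.9% and 1.37% before thinning. In TKO2, 62 of 3020 cells held no UMI of any member, 1578 held exactly 2 of the 4 genes and 147 held all 4.

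Among TKO2 cells the amounts varied far more than counting gives. A Fano factor, the variance over the mean, is 1 for counting error alone, and its median over 2956 genes whose mean reached 0.05 UMIs was 1.101. *Ddx1* had a Fano factor of 11.3, the second largest, with a mean of 8.19 UMIs, a median of 5 and a range of 0 to 113. *Mycn* had 4.94, the sixth largest, with a mean of 2.73, a median of 2 and a maximum of 102. *Fam49a* had 3.39 (eighth) around a mean of 0.574 UMIs, and *Nbas* had 1.69 (53rd) around a mean of 0.168. In TKO1 the Fano factor of *Ddx1* was 1.22 at a mean of 0.1205 UMIs, near the median of 1.17 over 3551 genes, and no other member reached the mean of 0.05. At equal relative variation a Fano factor rises with the mean, and neither the ranks nor the tumors were matched on the mean. These values therefore do not show that the relative variation of *Ddx1* differed between the tumors. The most extreme cells differed in which member they held. Before thinning, the cell with the most *Mycn* had 320 *Mycn* UMIs of its 3101, with 3 of *Ddx1* and 0 of *Fam49a*. The cell with the most *Ddx1* had 419 *Ddx1* UMIs of 4698, with 24 of *Mycn*, 49 of *Fam49a* and 11 of *Nbas*.

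**Figure D2:**
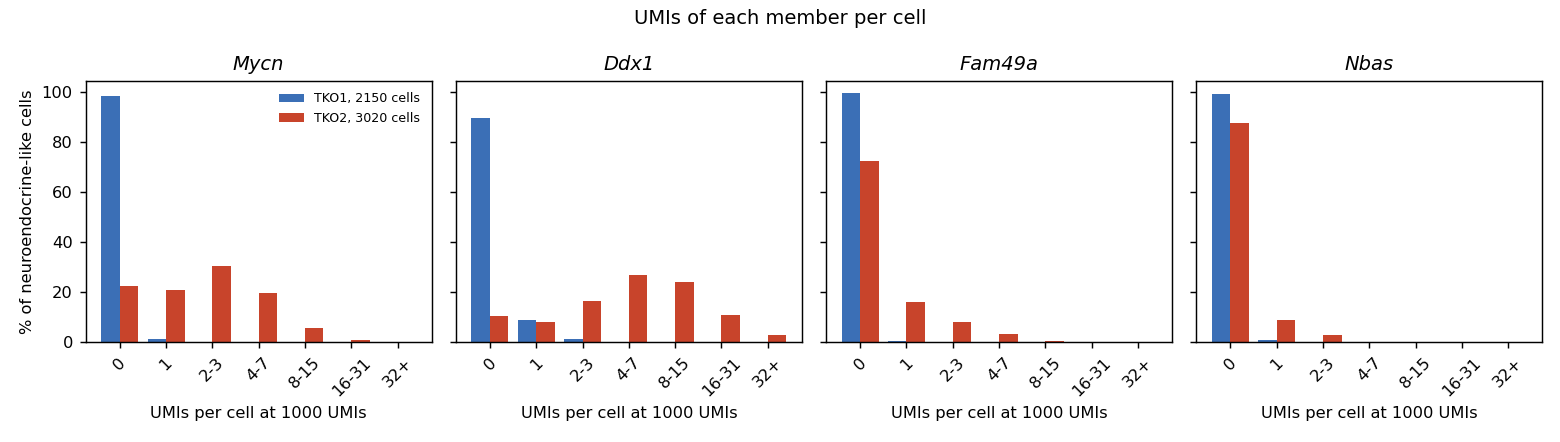
Share of neuroendocrine-like cells in percent (y axis) by the number of UMIs of each member in a cell thinned to 1000 UMIs (x axis, unequal bins), for TKO1 (blue, 2150 cells) and TKO2 (red, 3020 cells). TKO1 cells lie almost wholly at 0 UMIs (89.6% for *Ddx1* and 98.6% to 99.5% for the rest), while in TKO2 89 cells held 32 or more *Ddx1* UMIs.

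Across TKO2 cells at 1000 UMIs, the pairs among *Ddx1*, *Fam49a* and *Nbas* had larger correlations than the pairs with *Mycn* when all neuroendocrine-like cells were pooled. All r are Pearson correlations over 3020 cells of 1 library and are descriptions with no p. *Ddx1* and *Fam49a* had r of 0.37, *Ddx1* and *Nbas* 0.32, and *Fam49a* and *Nbas* 0.27. For *Ddx1*, *Fam49a* and *Nbas* the other members of this trio ranked first and second among 2955 genes whose mean reached 0.05 UMIs. The largest r of a gene outside the members was 0.13 for *Ddx1* (*Rps12*), 0.12 for *Fam49a* (*Rpl32*) and 0.09 for *Nbas* (*Tmem238*). *Mycn* had r of 0.11 with *Ddx1*. Among the genes for *Ddx1*, *Mycn* had rank 4, above their 99th percentile of 0.06. Among the genes for *Mycn*, *Ddx1* had rank 17, above their 99th percentile of 0.09. With *Nbas* and *Fam49a*, *Mycn* had r of 0.04 and -0.02. In TKO1, where the members are sparse, the 6 values ran from -0.01 to 0.03 over 2150 cells.

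Means of the members were also compared between groups of cells. From TKO2 cells with 0 *Ddx1* UMIs (316 cells) to those with 16 or more (416 cells), the *Fam49a* level went from 146 CPM (107 to 194) to 1490 CPM (1375 to 1612). The *Nbas* level went from 28.5 CPM (13.02 to 54.1) to 526 CPM (459 to 601). *Mycn* had 2608 CPM (2433 to 2792) in the first of these groups, 2008 CPM (1836 to 2192) in the 249 cells with 1 *Ddx1* UMI and 3865 CPM (3679 to 4059) in the last, so it had no even gradient over *Ddx1*. Grouped instead by *Mycn*, the *Ddx1* level went from 6876 CPM (6680 to 7076) in 679 cells with 0 *Mycn* UMIs to 13483 CPM (12179 to 14888) in 29 cells with 16 or more, and was higher in each of the 4 groups between than in the one before. The *Nbas* level was 177 CPM (147 to 211) and 517 CPM (289 to 853) in the first and last of these groups, and 152.6 to 211 CPM in the groups between. *Fam49a* had 546 CPM (492 to 605) and 379 CPM (189 to 679) in the first and last. Counting intervals do not cover the spread between cells, and the last group is 29 cells, so they are not used to judge these values.

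No neighbour had values like these. Of the 10 other genes within 10 Mb whose mean reached 0.05 UMIs, none had r with *Ddx1* beyond 0.04 in either direction. At a line of 0.1, *Ddx1* passed with 6 of 2955 genes (0.203%), *Fam49a* with 3 (0.102%) and *Nbas* with 2 (0.0677%), while *Mycn* passed with 20 (0.677%). The genes most like *Ddx1* after the trio were *Rps12*, *Mycn* (r of 0.11) and *Tmem238*. *Fam49a* was followed by *Rpl32*, *Cyb5a* and *Rplp0*, and *Nbas* by *Tmem238*, *Rplp0* and *Atf1*. The genes most like *Mycn* lay on other chromosomes. They were *Ccnl1*, *Gadd45g*, *Mt2*, *Mt1* and *Gnl3*, with r from 0.18 to 0.23. *Gadd45g* encodes a growth arrest and DNA damage protein, *Mt1* and *Mt2* encode metallothioneins, which bind zinc and copper, and *Gnl3* encodes nucleostemin, a nucleolar GTP-binding protein.

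Between groups of TKO2 cells, *Mycn* and *Fam49a* were ordered differently. All 4 members were among the variable genes behind the first clustering of TKO2, so these levels come from clusters made without them, 9 of which were neuroendocrine-like (3380 cells). *Mycn* ran from 1363 CPM (1292 to 1436) in cluster 0 to 3948 CPM (3825 to 4075) in cluster 4, a 2.90-fold span. *Fam49a* ran from 253 CPM (226 to 284) in cluster 5 to 1026 CPM (965 to 1090) in cluster 0, a 4.05-fold span. It stood at 934 to 1026 CPM in clusters 0, 1 and 2, whose first leading genes were *Vwf*, *Tmem184a* and *Epcam*. In clusters 3, 4 and 5, with *Cdkn1c*, *Htr3a* and the mitotic cyclin gene *Ccnb1* first, it stood at 253 to 262 CPM while *Mycn* stood at 3375 to 3948 CPM. Cluster 7, with the mitotic gene *Cenpf* first, had *Fam49a* at 608 CPM (536 to 687) and *Mycn* at 1739 CPM (1616 to 1869), so clusters led by mitotic genes were not alike in either. Cluster 2 had both high, with *Mycn* at 3123 CPM, and the highest *Ddx1* level, 11776 CPM (11595 to 11960). *Ddx1* spanned 2.03-fold, down to 5796 CPM (5635 to 5960) in cluster 3, and *Nbas* 2.26-fold, from 120 to 272 CPM.

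**Figure D3:**
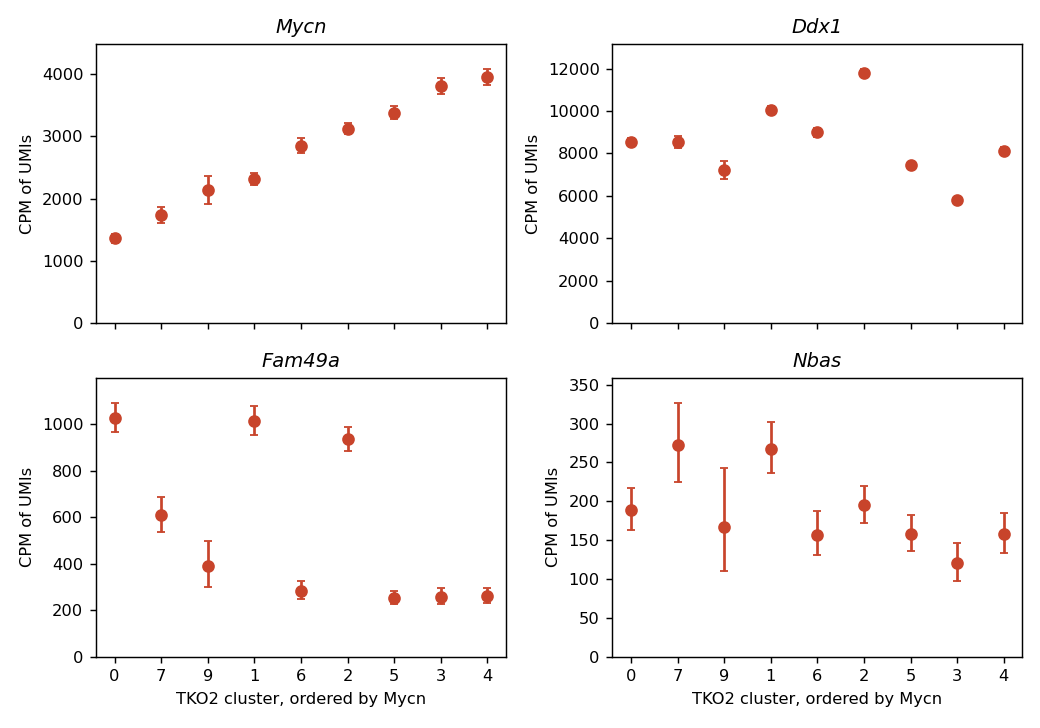
CPM of each member (y axes, linear from 0) in the 9 neuroendocrine-like TKO2 clusters made without the members (x axis, ordered by *Mycn*), with 95% intervals for counting error. *Mycn* runs from 1363 to 3948 CPM, while *Fam49a* is at 934 to 1026 CPM in clusters 0, 1 and 2 and at 253 to 262 CPM in clusters 3, 4 and 5.

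Even the lowest TKO2 cluster was far above the highest TKO1 cluster for every member. The 8 neuroendocrine-like clusters of TKO1 ran from 6.502 to 18.7 CPM for *Mycn*, 87.7 to 182 CPM for *Ddx1*, 2.17 to 13.1 CPM for *Fam49a* and 2.94 to 17.1 CPM for *Nbas*. Within TKO2 clusters the correlation of the trio was lower in some and held its sign in all. *Ddx1* and *Fam49a* had r from 0.06 to 0.53, with a median of 0.28, *Ddx1* and *Nbas* from 0.15 to 0.39, with a median of 0.29, and *Fam49a* and *Nbas* from 0.02 to 0.58, with a median of 0.23. *Mycn* and *Ddx1* had r from 0.02 to 0.37, with a median of 0.22, which is above the 0.11 over all cells. In 5 of the 9 clusters this r exceeded that of *Ddx1* and *Fam49a*, so the order of the pairs over all cells did not hold within each cluster. *Mycn* and *Fam49a* were above 0 in 6 of 9 clusters, from -0.08 to 0.25.

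**Figure D4:**
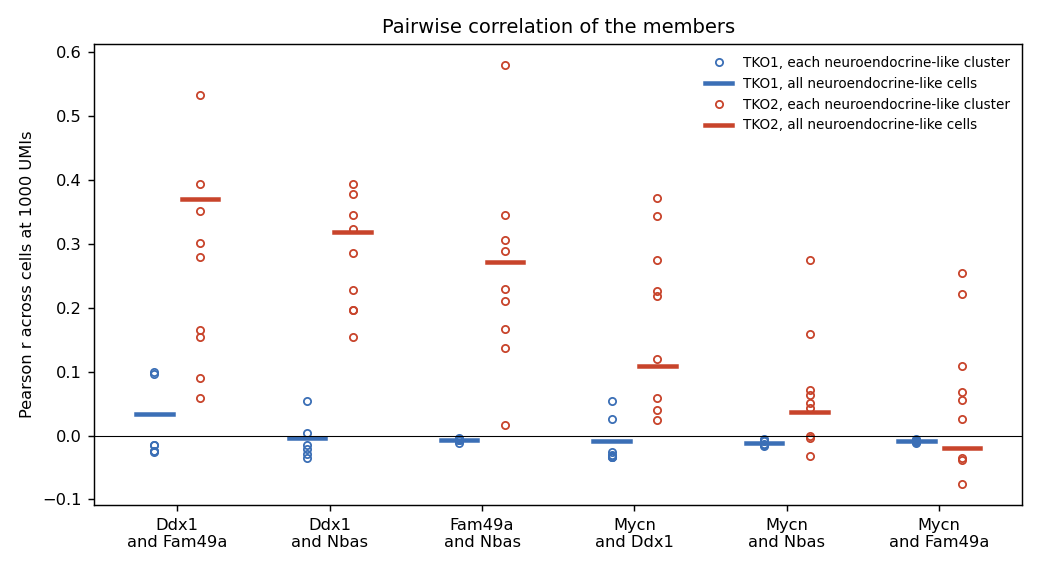
Pearson r across cells at 1000 UMIs (y axis) for the 6 pairs of members (x axis), over all neuroendocrine-like cells (bars) and within each neuroendocrine-like cluster made without the members (circles), for TKO1 (blue) and TKO2 (red). In TKO2 the 3 pairs among *Ddx1*, *Fam49a* and *Nbas* have the highest bars, 0.27 to 0.37, and all TKO1 bars lie between -0.01 and 0.03.

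The macrophage-like cells of TKO2 had lower but clear levels of the members. Macrophages are not tumor cells in this model, and the 13 macrophage markers, among them *Lyz2* at 17886 CPM, summed to 36943 CPM in them. *Mycn* had 160 UMIs in the 121 cells, or 710 CPM (604 to 829), which is 24.7% of the neuroendocrine-like level, a log2 ratio of -2.02 (-2.25 to -1.80). *Ddx1* had 434 UMIs, or 1927 CPM (1750 to 2117), 21.9% of that level. *Fam49a* had 48 UMIs at 213 CPM (157 to 283), 35.5% of it, and *Nbas* 8 UMIs at 35.5 CPM (15.3 to 70.0), 19.2% of it. Per 100 *Ddx1* UMIs these cells held 36.9 *Mycn* UMIs (30.6 to 44.3), where the neuroendocrine-like cells held 32.7 (32.2 to 33.2), and 1.84 *Nbas* UMIs (0.791 to 3.66), where those held 2.10 (1.99 to 2.21). For *Fam49a* the figures were 11.1 (8.03 to 14.9) and 6.82 (6.62 to 7.02). These intervals do not cover the spread between cells. Among the 121 cells, the 10 with the most UMIs of a gene held 77.1% for *Fam49a* and 74.9% for *Ddx1*.

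These UMIs were unevenly held. Of the 121 cells, 77 held no *Ddx1* UMI and had 10 *Mycn* and 12 *Fam49a* UMIs in all, while 24 cells with 3 or more held 407 of the 434 *Ddx1* UMIs, 115 of the 160 of *Mycn* and 35 of the 48 of *Fam49a*. The 24 cells had a median of 2510 UMIs against 1323 in the 77, macrophage markers at 8505 CPM against 50741 CPM, and neuroendocrine markers at 1926 CPM against 323 CPM. The part of mixed droplets or free RNA in the macrophage-like values was not tested. In the 98 macrophage-like cells of TKO1, *Fam49a* stood out, with 8 UMIs at 55.9 CPM (24.2 to 110), 8.76-fold above the neuroendocrine-like cells there at a log2 ratio of 3.13 (1.78 to 4.31). Those UMIs lay in 4 of the 98 cells, with up to 3 in a cell. *Ddx1* had 9 UMIs at 62.9 CPM (28.8 to 119), a log2 ratio of -1.09 (-2.23 to -0.16), and *Mycn* and *Nbas* had 1 UMI each. In the 105 club-like cells of TKO1, *Ddx1* had 10 UMIs at 50.8 CPM (24.4 to 93.5) and the other members had 0 UMIs, which allows up to 15.3 CPM.

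*Calca*-positive cells were nearly all of the neuroendocrine-like cells of TKO1 and few of those of TKO2. At 1 UMI or more, 2907 of 2990 neuroendocrine-like cells of TKO1 and 95 of 3381 of TKO2 were positive. In TKO2 the positive cells had 2320 CPM of *Mycn* (2127 to 2527) and the negative cells 2896 CPM (2858 to 2935), a log2 ratio of -0.32 (-0.45 to -0.20). *Ddx1* had 7430 and 8840 CPM, a log2 ratio of -0.25 (-0.32 to -0.18). Among the positive cells, 10 cells held 45.9% of the *Mycn* UMIs and 56.4% of the *Ddx1* UMIs, a spread between cells that these intervals do not cover. *Fam49a*, at -0.22 (-0.49 to 0.05), and *Nbas*, at -0.50 (-1.07 to 0.02), had intervals that include 0. The share of positive cells was 2.81% in the neuroendocrine-like cells of TKO2, at a median of 1983 UMIs. It was 3.31% in its macrophage-like cells (4 of 121), at a median of 1639. In TKO1 the share was 44.9% in the macrophage-like cells (44 of 98) and 61.9% in the club-like cells (65 of 105). Whether the *Calca* UMIs in the neuroendocrine-like cells are background or expression was not tested. Only 9 of the 95 cells held 3 or more *Calca* UMIs. In TKO1, *Ddx1* had 132 CPM (121 to 144) in positive and 212 CPM (134 to 318) in negative cells, a log2 ratio of -0.68 (-1.28 to -0.01) that became -0.01 (-0.52 to 0.55) when all retained cells with 3 or more *Calca* UMIs were set against all with 0. The other members had 0 UMIs in the 83 negative cells, which allows up to 27.6 CPM and includes their levels in the positive cells.

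Most *Calca* of TKO2 lay in the unnamed cluster of 66 cells, with 467 of its UMIs at 3907 CPM, where the 6 club markers summed to 63478 CPM. As a whole this cluster had 945 CPM of *Mycn* (779 to 1137), 32.8% of the neuroendocrine-like level, and 3965 CPM of *Ddx1* (3616 to 4339), 45.1% of it. It was not 1 kind of cell by the members, since 33 of the 66 held none of them and 10 cells held 92.0% of its *Mycn* UMIs. In 34 cells without a *Ddx1* UMI, with a median of 1108 UMIs, *Mycn* had 0 UMIs in 41886, although 21 of them held 3 or more *Calca* UMIs. Over those UMIs a count of 0 for *Mycn* allows up to 71.6 CPM. In the 18 cells with 3 or more, with a median of 2478 UMIs, *Ddx1* had 456 and *Mycn* 108 of the cluster's 474 and 113 UMIs, and *Calca* had 2126 CPM against 4608 CPM in the first 34. Club markers summed to 15434 CPM in these 18 and to 126558 CPM in the 34. Whether the 18 droplets held more than 1 cell was not tested.

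Over all clusters of TKO2 together, cells called cycling by G2/M genes had more *Mycn* and less *Fam49a* than those called non-cycling. For *Mycn* this was not seen within the 4 clusters where both classes could be compared. A cell was called cycling with 3 or more UMIs of 20 G2/M genes at 1000 UMIs, non-cycling with 0, and 838 cells of TKO2 and 927 of TKO1 in between were left out. Non-cycling here means no G2/M UMI, since 593 of the 656 such cells of TKO2 held at least 1 UMI of a list of 20 S-phase genes. The cycling cells of TKO2 were deeper, with a median of 2388 UMIs against 1919. *Mycn* had 3098 CPM (3045 to 3151) in 1526 cycling and 2557 CPM (2474 to 2642) in 656 non-cycling cells, 1.21-fold higher. *Ddx1* had 8918 and 9256 CPM, a log2 ratio of -0.05 (-0.08 to -0.02). *Fam49a* was lower in cycling cells, at 514 CPM (492 to 536) against 702 CPM (658 to 747), a log2 ratio of -0.45 (-0.56 to -0.34). *Nbas* had 175 and 200 CPM, with an interval that includes 0. Only 4 clusters held at least 20 cells of each class. They held 74, 47, 32 and 117 of the 1526 cycling cells, so most cycling cells were outside this comparison. Within these 4 clusters the log2 ratio of *Mycn* ran from -0.18 to 0.17, above 0 in 2 clusters and below 0 in 2. That of *Fam49a* ran from -0.72 to 0.13, above 0 in 2 and below 0 in 2. For *Ddx1* it ran from -0.76 to 0.29, above 0 in 1 and below 0 in 3. Counting intervals do not cover the spread between cells, so they are not used to judge these values. By the S-phase list, 1914 cells with 3 or more UMIs were compared with 196 cells with 0. *Mycn* turned to 2843 and 3161 CPM, a log2 ratio of -0.15 (-0.23 to -0.07), and *Ddx1* and *Fam49a* stood at -0.35 and -0.42. In the 196 cells, the 10 with the most UMIs of a gene held 29.6% for *Mycn*, 31.3% for *Ddx1* and 49.9% for *Fam49a*. The interval does not cover this spread between cells. In TKO1, *Ddx1* had 158 CPM (135 to 184) in 593 cycling and 115 CPM (94.8 to 139) in 630 non-cycling cells, a log2 ratio of 0.46 (0.10 to 0.82), and the other members had 4 to 15 UMIs in each, with intervals that include 0.

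**Figure D5:**
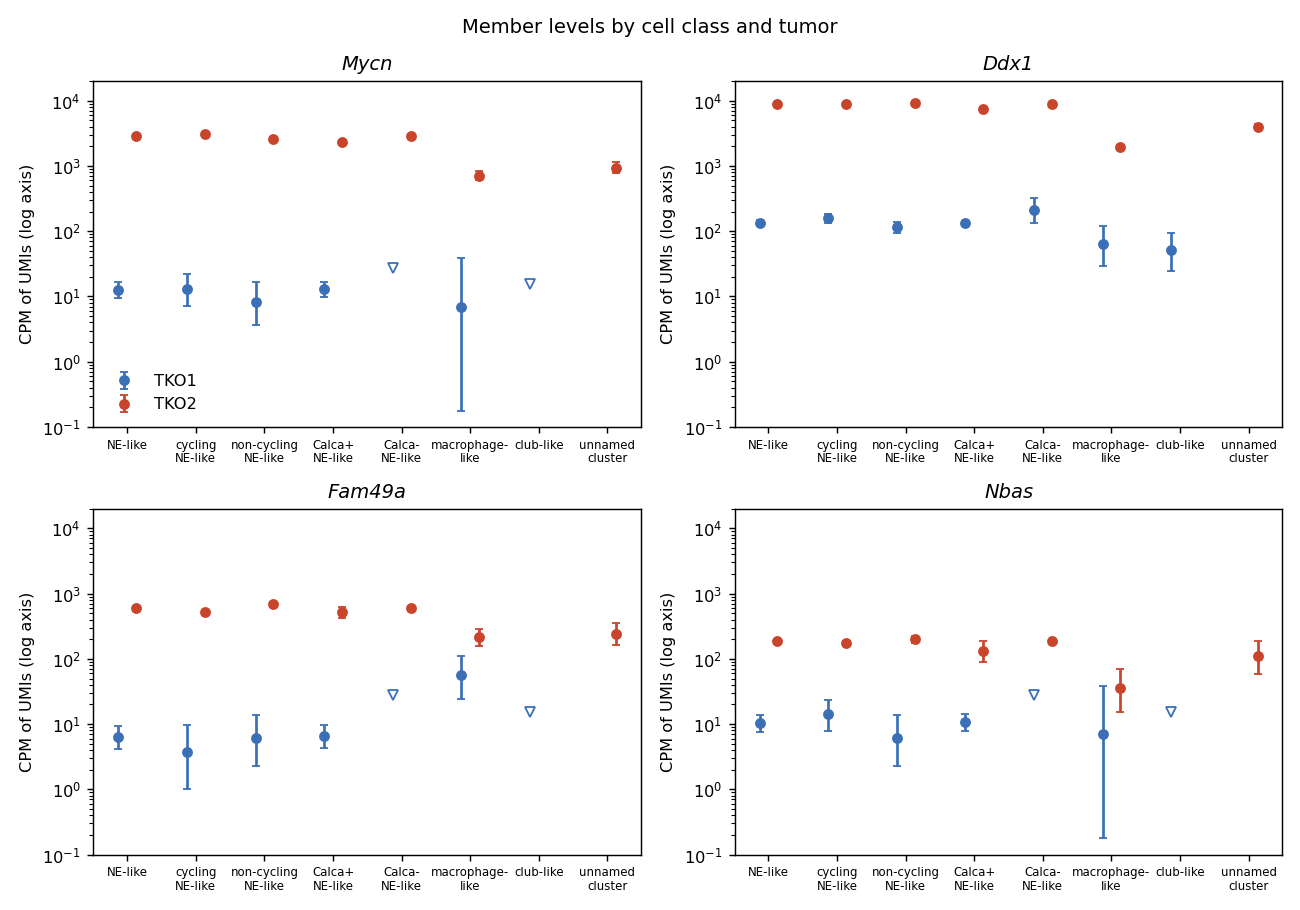
CPM of each member (y axes, logarithmic) by cell class (x axis; NE-like is neuroendocrine-like) in TKO1 (blue) and TKO2 (red), with exact Poisson 95% intervals for counting error. Open triangles mark 0 UMIs and stand at the level that 3 UMIs would give. The TKO2 classes of *Mycn* lie between 710 and 3098 CPM, and those of TKO1 with any UMI between 6.99 and 13.1 CPM.

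The other genes of the members' pathways were compared between the tumors from lists chosen with earlier results known, each beside the median of -0.37 over all genes. The nucleolar and growth genes commonly given as MYC-family targets were mostly higher in TKO2. Of 13, 12 lay above the median of all genes and 2 were at least 4-fold higher, where 4.83% of all genes were, with a list median of 1.26. *Srm*, spermidine synthase, had 120 CPM in TKO1 and 907 CPM in TKO2, a log2 ratio of 2.92 (2.79 to 3.05). *Npm1*, nucleophosmin, had 556 and 3048 CPM, a log2 ratio of 2.45 (2.39 to 2.52). *Fbl*, the nucleolar methyltransferase fibrillarin, stood at 1.77, *Nolc1* at 1.73 and *Odc1*, ornithine decarboxylase, at 1.60 (1.03 to 2.21), while *Ldha*, lactate dehydrogenase A, at -0.48 was the lowest. With TMM factors 4 of the 13 were at least 4-fold higher, and the median of all genes also rose, to 0.01. The share of all genes at that line was not counted with TMM factors, so nothing is read from the 4. Within TKO2 cells, 11 of these genes were dense enough for a correlation and had a median r of 0.07 with *Mycn* and 0.02 with *Ddx1*, where the median r of all genes was -0.01 for both, and *Npm1* (0.17) and *Srm* (0.12) passed 0.1 with *Mycn*, as 0.677% of all genes did.

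Of 10 genes that encode MYC-family proteins or their partners and antagonists, none was at least 4-fold higher and 2 were at least 4-fold lower, beside 14.5% of all genes that were lower, and nothing is read from that count. These were the other MYC-family genes, *Mycl* with 850 and 262 UMIs, 201 and 33.8 CPM and a log2 ratio of -2.57 (-2.78 to -2.37), and *Myc* with 42 and 6 UMIs and a log2 ratio of -3.68 (-5.21 to -2.44). *Max*, the shared partner, had 101 and 123 CPM, a log2 ratio of 0.28 (0.11 to 0.44), and the list's median was -0.46.

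The proteins that work with the other 3 members had no such difference in their genes. Of 5 genes of the tRNA ligase complex, none was 4-fold different in either direction, and *Rtcb*, its catalytic subunit, had 164 and 148 CPM, a log2 ratio of -0.15 (-0.29 to -0.01), beside 6.03 for *Ddx1*. Of 7 genes of the NRZ tether and its SNAREs, none was 4-fold different, and *Zw10* and *Rint1*, the partners of *Nbas* in the complex, stood at 0.05 (-0.43 to 0.53) and -0.01 (-0.32 to 0.30). Of 11 genes of Rac1 and the WAVE complex, *Wasf2* alone was 4-fold lower, at -2.31 (-2.50 to -2.13), and none was higher, beside 14.5% and 4.83% of all genes. *Fam49b*, the close relative of *Fam49a*, had 129 and 218 CPM, a log2 ratio of 0.76 (0.62 to 0.90), beside 6.55 for *Fam49a*. The medians of these 3 lists were -0.15, 0.05 and -0.17.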

How the data were processed

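Single-cell RNA-seq libraries of 1 tumor from each of 2 TKO mice were used, grouped by the titles TKO1 and TKO2. The authors deposited UMI counts per gene and barcode, whole numbers that were not normalized. The submitters' processing notes name Cell Ranger, Seurat and mm10, with no versions, and the annotation is not given in the sources used here. Of 27998 identifiers, 27645 matched GENCODE M21 (GRCm38, the assembly mm10 is built on).

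Barcodes with more than 500 detected genes were retained, and none had over 7.60% mitochondria-encoded UMIs. No doublet caller was run. Each tumor was clustered with Seurat 5.3.0 in R 4.3.3 (1000 variable genes, 10 components, resolution 0.8). A cluster was called macrophage-like or club-like with at least 3 markers 4-fold above the other cells, and neuroendocrine-like with at least 3 markers 2-fold above macrophage-like cells. A cluster with 3 club and 3 neuroendocrine markers 4-fold above the rest stayed unnamed. UMIs were summed per class and scaled to CPM with exact Poisson intervals, and log2 ratios were given exact conditional binomial intervals, at 95%. A count of 0 was set to 3 UMIs. Cells were thinned without replacement (seed 1) for shares, which have exact Clopper-Pearson intervals, Fano factors and correlations. For TMM factors edgeR 4.0.16 was run, without its tests. The remaining steps used pandas 2.3.3, scipy 1.17.1 and numpy 2.4.6 under Python 3.11.15, and matplotlib 3.10.9 drew the figures. The scripts were tested on simulated data. Total counts were 5285038 UMIs over all barcodes of TKO1 and 8291430 of TKO2.

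The members and all gene lists were chosen with earlier results of these data known. Named genes are the members, genes with at least 10 UMIs within 2 Mb of *Mycn* and those within 10 Mb at least 4-fold higher in TKO2, the 5 genes most correlated with each member, the partner and target lists, the markers and *Calca*. Other genes are named as leading genes of clusters, as the deleted genes, or where the text says so. Alternatives covered scaling, cell filters, shared barcodes, depth, clustering and class definitions. Clustering without the members, removal of the TKO1 cluster with ciliated markers, the *Calca* comparison over all cells, the splits by *Ddx1* and the cycling comparison within clusters were added after seeing the data.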

Additional observations from a re-analysis of the deposited data

Results flagged for a closer look

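Barcodes with 500 or fewer detected genes entered no comparison, and in TKO2 they held all 4 members above the 16.1 CPM that a count of 0 allows. Over 248 such barcodes *Mycn* had 2718 CPM, *Ddx1* 5173 CPM, *Fam49a* 328 CPM and *Nbas* 156 CPM, and a *Mycn* UMI was found in 51.2% of them. In the 1321 such barcodes of TKO1, *Mycn* had 11.1 CPM and *Ddx1* 113 CPM.

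Some ratios between cell classes pointed in opposite directions in the tumors, with 1 library each, and the difference between the tumors was not tested. *Fam49a* in macrophage-like over neuroendocrine-like cells had a log2 ratio of 3.13 in TKO1 and -1.49 in TKO2, with levels of 55.9 against 6.39 CPM and 213 against 600 CPM. The gene was chosen for its higher level in TKO2, and the TKO1 macrophage-like level rests on 8 UMIs in 4 cells. *Ddx1* in cycling over non-cycling cells had a log2 ratio of 0.46 in TKO1 and -0.054 in TKO2, where the ratio of 0.963 is close to no difference. With the S-phase list the values for *Ddx1* were 0.74 and -0.35. In TKO2, 10 of the 196 cells with 0 S-phase UMIs held 31.3% of the *Ddx1* UMIs of that group.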

How the results depend on the processing

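All 4 members stayed at least 4-fold higher in TKO2 under each of the 9 alternatives run, with log2 ratios of 7.76 to 8.22 for *Mycn*, 5.99 to 6.41 for *Ddx1*, 6.25 to 7.52 for *Fam49a* and 3.67 to 4.53 for *Nbas*. The median of the 4 was 6.29 and moved to 6.78 over barcodes with more than 1000 detected genes. The median r of the 6 pairs in TKO2, 0.19, was 0.14 at 500 UMIs per cell. Over all alternatives r ran from 0.26 to 0.39 for *Ddx1* and *Fam49a*, 0.24 to 0.40 for *Ddx1* and *Nbas*, 0.16 to 0.32 for *Fam49a* and *Nbas*, and -0.04 to 0.00 for *Mycn* and *Fam49a*. The log2 ratio of *Mycn* in *Calca*-positive over *Calca*-negative TKO2 cells went from -0.32 to -0.52 at 3 or more *Calca* UMIs, and to -1.20 over all cells with that many, where *Fam49a* went from -0.22 to -1.20, *Ddx1* from -0.25 to -0.92 and, in TKO1, *Ddx1* from -0.68 to -0.01. Of the 53 TKO2 cells with 3 or more *Calca* UMIs, 42 lay in the unnamed cluster, so the comparison over all cells also changed the kind of cell. For cycling over non-cycling TKO2 cells the log2 ratio of *Mycn* turned from 0.28 to -0.15 with the S-phase list, and the cause was not tested. There, 10 of the 196 cells with 0 S-phase UMIs held 29.6% of the *Mycn* UMIs of that group. Within 10 Mb, genes higher in TKO2, the 4 members among them, went from 6 to 11 of 61 at 2-fold. Lower ones went from 5 to 15 of 61 at 2-fold, 2 of 49 at 50 UMIs and 1 of 61 with TMM factors. The MYC-family targets at least 4-fold higher went from 2 to 4 of 13 with TMM factors. The shares of all genes under these settings were not counted, so nothing is read from these changes. Of 218 values under alternatives, 176 stayed near the reported value, 41 moved and 1 reversed. Near means inside its 95% counting interval, within 0.05 for r, within 0.1 for a list median and within 1.5 times for counts of genes; the median of the members was allowed the typical margin of their intervals. No paired analysis was possible because each tumor gave 1 library, and for the same reason no replicate could be left out. Depth limits *Fam49a*, *Nbas* and *Mycn* in TKO1, with 27 to 53 UMIs.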
